A study of Mus musculus with 12 samples.

Results

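The adipocyte and stromo-vascular fractions of a depot shared part of what set that depot apart. Of the 12422 probe sets on the array other than controls, 648 (5.22%) differed between subcutaneous and intraabdominal fat in the same direction in both cell fractions, with no overlap of arrays in either. A probe set is a group of short probes that reads a transcript. It was taken as a member when all 3 subcutaneous arrays lay above, or all 3 below, all 3 intraabdominal arrays in adipocytes, and the same held in stromo-vascular cells. Of the members 367 (2.95% of all probe sets) were higher in subcutaneous and 281 (2.26%) higher in intraabdominal fat. Taken singly, the adipocyte arrays did not overlap for 2720 probe sets (21.9%) and the stromo-vascular arrays for 3828 (30.8%).

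The study asked how fat of different places in the body differs, with 12 Affymetrix arrays in 4 groups of 3. The animals were male C57BL/6 mice, an inbred laboratory strain, aged 42 to 49 days, and no group carried an introduced allele or received an agent. Flank fat gave the subcutaneous and epididymal fat the intraabdominal groups, and tissue of 10 mice was pooled by depot and digested with collagenase. Adipocytes were taken as the floating cells. The stromo-vascular cells, which include fat cell precursors together with vessel, immune and connective tissue cells, were plated and gave RNA after 16 h of culture. Fraction and culture therefore cannot be told apart, and a difference common to both fractions is common to fresh and cultured cells. The labels do not say whether the 3 samples of a group came from separate pools, so the scatter of these samples, on which the p-values rest, may be technical. In RNA from a mixture of cells, fewer cells of a type and less RNA per cell cannot be told apart. Carry-over of cells or RNA between the fractions was not tested.

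Fat depots arise from different parts of the embryo's mesoderm. Transcription factors that mark position along the body, such as homeobox genes, stay active in adult connective tissue, where their pattern depends on the place of origin. Subcutaneous and visceral fat also differ in their matrix, their blood supply, their immune cells and how readily they store and release lipid. Visceral depots such as the epididymal pad are covered by mesothelium, the lining of the body cavity.

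**Figure D1:**
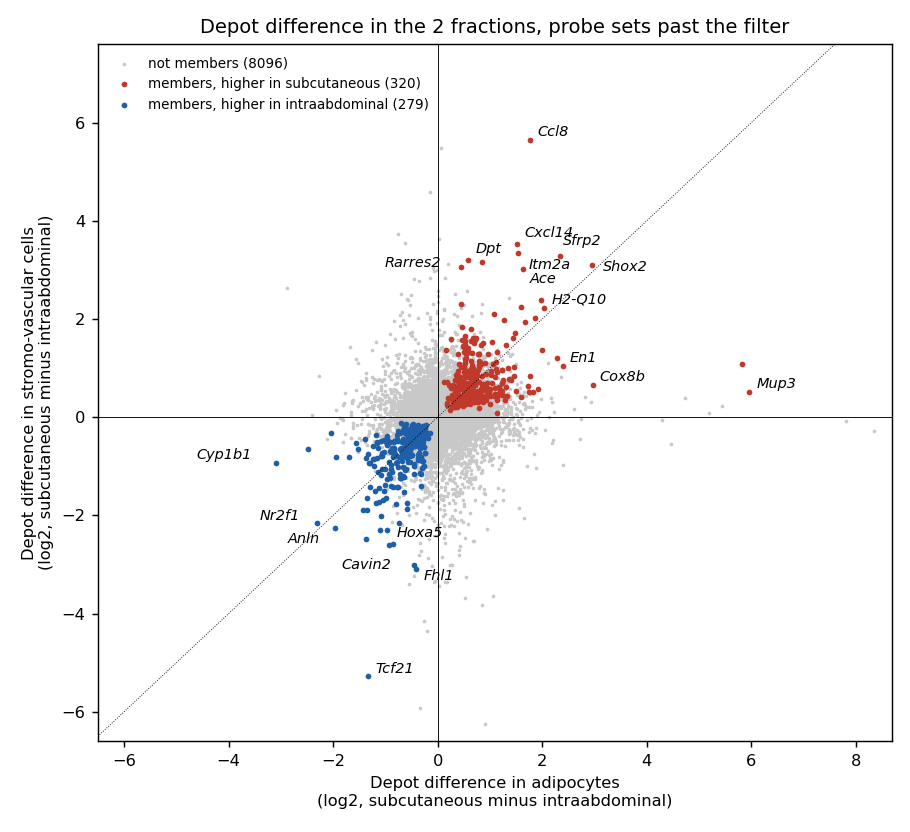
Depot difference (log2, subcutaneous minus intraabdominal) of each probe set past the filter on low signal, in adipocytes on the x axis and in stromo-vascular cells on the y axis. The 320 red members are higher in subcutaneous and the 279 blue members higher in intraabdominal fat, the grey probe sets are not members, and the dotted line marks equal differences; Shox2 and Nr2f1 lie near that line, whereas Ccl8 and Tcf21 are far larger in stromo-vascular cells and Mup3 in adipocytes.

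Signals are on the linear scale deposited by the authors, and differences are on the scale of log2(signal + 40.1), which understates the change of dim genes. A positive difference means more RNA in subcutaneous fat. The depot main effect is the difference over all 6 arrays against 6 with fraction as a factor, given ± its standard error. That error and its p-value take in the scatter of the samples and also any unequal size of the difference in the 2 fractions. For Fhl1 the error was 0.37, beside 0.12 for the difference within a fraction. A probe set was called when limma's adjusted p was under 0.05. Of the members 599 passed a filter on low signal (6.89% of the 8695 tested), 320 of the 367 higher in subcutaneous and 279 of the 281 higher in intraabdominal fat. In all 785 of 8695 tested probe sets (9.03%) were called for the main effect, 414 (4.76%) higher in subcutaneous and 371 (4.27%) higher in intraabdominal fat. The calls included 471 members, 237 and 234 by direction. The rule and the main effect read the same depot contrast, so the members' adjusted p-values set their size against the spread and are no separate evidence. Tested separately, 160 members were called in both fractions, 116 in adipocytes alone, 117 in stromo-vascular cells alone and 206 in neither.

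The balance between the directions followed the scaling of the arrays. The deposited values gave 56.6% of members to subcutaneous fat. Centring each array on its median gave 159 members higher in subcutaneous and 526 higher in intraabdominal fat (23.2% subcutaneous), with 430 of the deposited members kept. Quantile normalization gave 261 and 351 (42.6%), with 490 kept. The share of main-effect calls that were higher in subcutaneous fat was 52.7% as deposited, 24.6% after centring and 44.5% after quantile normalization. All probe sets together had a median difference of 0.14 in adipocytes and 0.07 in stromo-vascular cells, so small differences toward subcutaneous fat lie near that shift. Among tested members the main effect had a median of 0.68 in those higher in subcutaneous fat (0.19 to 3.71) and -0.60 in those higher in intraabdominal fat (-3.31 to -0.20), beside 0.07 over all tested probe sets. Members reached a 2-fold difference in both fractions in 26 cases toward subcutaneous and 21 toward intraabdominal fat.

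Genes that set position in the embryo included members of large difference in both directions. Of 46 tested homeobox genes, 3 were members higher in subcutaneous fat (Shox2, En1 and Hoxb8) and 2 higher in intraabdominal fat (Hoxa5 and Hoxc8). Of 58 other patterning factors, Ebf3 and Twist1 were members higher in subcutaneous fat, and Tcf21, Nr2f1 and Nfix were higher in intraabdominal fat. These counts, and those of the lists below, stand beside 4.04% of all 6436 tested genes as members higher in subcutaneous fat. Members higher in intraabdominal fat were 3.78%. By their brightest probe set 295 of the 6436 genes were called higher in subcutaneous and 288 higher in intraabdominal fat. The median main effect was 0.22 over the homeobox genes and 0.10 over the other factors, beside 0.06 over all tested genes. Calls also went both ways, 2 toward subcutaneous and 4 toward intraabdominal fat among the homeobox genes and 3 and 5 among the other factors. After centring the homeobox members were 2 and 4, and after quantile normalization 3 and 3. The calls of the other factors were 2 and 9 after centring and 2 and 8 after quantile normalization.

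The 250 bases before the start of 4 of these genes, 2 of each direction, are printed as examples. The sequences are from RefSeq on the mouse build GRCm38.p6, read 5′ to 3′ on the strand of the gene. The stretch of Shox2 lies at chr3:66981772-66982021, minus strand, that of En1 at chr1:120602237-120602486, plus strand, Tcf21 at chr10:22820144-22820393, minus strand and Hoxa5 at chr6:52204588-52204837, minus strand. Capitals mark matches, on either strand, to 5 motifs. TAATTA is the core that many homeodomain proteins bind. CANNTG is the E-box of basic helix-loop-helix proteins such as Tcf21 and Twist1. AGGTCA is the core bound by nuclear receptors such as Nr2f1. AGATAA is a site of GATA factors. TTTCNNTTC is a shortened form of the core of the interferon-stimulated response element and was added after values were seen. It leaves out a base, so it misses sites that hold the full core, which was not searched for.
Shox2: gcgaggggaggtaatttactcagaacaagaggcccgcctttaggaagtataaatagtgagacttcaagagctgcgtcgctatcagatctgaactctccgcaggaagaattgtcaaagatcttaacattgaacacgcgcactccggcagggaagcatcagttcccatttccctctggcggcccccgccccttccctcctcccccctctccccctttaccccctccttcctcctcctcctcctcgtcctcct
En1: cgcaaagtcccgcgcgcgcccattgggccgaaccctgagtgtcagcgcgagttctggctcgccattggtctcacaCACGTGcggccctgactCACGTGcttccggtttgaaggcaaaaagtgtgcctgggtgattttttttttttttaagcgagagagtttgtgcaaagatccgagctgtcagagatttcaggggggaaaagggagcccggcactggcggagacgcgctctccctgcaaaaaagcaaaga
Tcf21: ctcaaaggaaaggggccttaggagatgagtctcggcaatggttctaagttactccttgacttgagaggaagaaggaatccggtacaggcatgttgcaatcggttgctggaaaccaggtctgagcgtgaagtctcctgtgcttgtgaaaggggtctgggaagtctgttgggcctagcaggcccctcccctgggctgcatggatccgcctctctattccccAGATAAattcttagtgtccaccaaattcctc
Hoxa5: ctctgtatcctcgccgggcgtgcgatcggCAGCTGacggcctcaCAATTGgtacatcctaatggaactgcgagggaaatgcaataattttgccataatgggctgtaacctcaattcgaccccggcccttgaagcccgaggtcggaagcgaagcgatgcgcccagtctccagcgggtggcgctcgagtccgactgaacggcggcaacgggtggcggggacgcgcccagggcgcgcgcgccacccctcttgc
En1 and Hoxa5, which differ between the depots in opposite directions, each held 2 E-boxes, Tcf21 held 1 AGATAA, and the Shox2 stretch held none of the 5 motifs. The stretches of Nr2f1 and of Sfrp2, a member described below, were also read and held none of them. Over windows of 300 bases that reach 50 bases past the start, an E-box was present in 137 of 211 genes with members higher in subcutaneous fat (64.9%), 124 of 207 with members higher in intraabdominal fat (59.9%) and 62.7% of all tested genes with a window. TAATTA was present in 1.42%, 1.93% and 2.25% of the same sets, AGATAA in 7.11%, 4.83% and 6.32%, and AGGTCA in 35 of 211, 21 of 207 and 12.2%. The E-box shares of both directions lay close to that of all tested genes. A match in these windows is a match of letters only.

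Shox2, a homeobox regulator of limb and heart development, differed by nearly the same amount in both fractions, 2.96 and 3.09. Its signal was 2442, 2568 and 2361 on the 3 subcutaneous adipocyte arrays against 264, 273 and 309 on the intraabdominal ones. In stromo-vascular cells it was 3839, 3823 and 3204 against 498, 402 and 291. Every subcutaneous array was thus far brighter than every intraabdominal array, and the main effect was 3.02 ± 0.14 (8.13-fold, adjusted p = 1.81e-08). A dimmer Shox2 probe set was also a member. En1, the engrailed homeobox factor of the ventral limb, dorsal skin and hindbrain, read 487, 306 and 475 against 22.2, 31.7 and 105 in adipocytes and 1992, 1937 and 2419.9 against 871, 1026 and 1119 in stromo-vascular cells. The main effect of En1 was 1.72 ± 0.28 (3.29-fold, adjusted p = 0.00204), and the intraabdominal adipocytes were close to the bottom of the scale. Hoxb8, a Hox factor of the trunk, had a main effect of 0.52 ± 0.15, just short of a call (adjusted p = 0.0501).

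Tbx15, a T-box factor of skin and skeletal patterning, was a member too dim for the test and is named after its values were seen. One of its probe sets read 261, 268 and 236 in subcutaneous against 20.6, 17.8 and 24.1 in intraabdominal adipocytes. In stromo-vascular cells it read 725, 866 and 590.2 against 28.3, 15.6 and 25.4. The intraabdominal arrays of both fractions stayed under the pseudocount, so the log2 difference of 2.93 depends on it. The other Tbx15 probe sets did not meet the rule.

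Tcf21, a basic helix-loop-helix factor of visceral mesoderm and mesothelial derivatives, lay at the other end. It read 174, 87.4 and 57.9 in subcutaneous against 227, 438 and 294 in intraabdominal adipocytes, all low signals. In stromo-vascular cells the subcutaneous arrays read 49.7, 50.2 and 50.7 and the intraabdominal arrays 3319.9, 3587 and 3502. The main effect of -3.31 ± 0.57 (9.89-fold, adjusted p = 0.00308) rested mainly on the stromo-vascular cells, where the difference was -5.28 against -1.33 in adipocytes. Nr2f1, an orphan nuclear receptor of nerve and mesoderm development, differed by almost the same amount in both fractions, -2.30 and -2.16. Its adipocyte signal was 51.9, 222 and 29.5 against 567, 447 and 640.0, and its stromo-vascular signal 407, 267 and 195 against 1452, 1322 and 1376. The intraabdominal arrays lay above every subcutaneous array of the same fraction (main effect -2.23 ± 0.29, adjusted p = 0.000363).

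Hoxa5, a Hox factor of the neck and upper trunk, read 1096, 784 and 633 against 1609.9, 1291 and 1914 in adipocytes and 202, 245 and 281 against 1609, 1664 and 1699 in stromo-vascular cells. The intraabdominal level was alike in the fractions, and the subcutaneous level was lower in the stromo-vascular cells (main effect -1.76 ± 0.27, adjusted p = 0.00145). Hoxc8, a Hox factor of the lower trunk, differed by -1.08 ± 0.17 (adjusted p = 0.00153). Among the smaller members, Ebf3, a factor of mesenchyme and nerve cells, had a main effect of 1.03 ± 0.16 and Nfix, of the nuclear factor I family, -0.49 ± 0.09, both called. Twist1, a factor of head and limb mesenchyme, had 0.32 ± 0.10 and was not called (adjusted p = 0.0652).

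**Figure D2:**
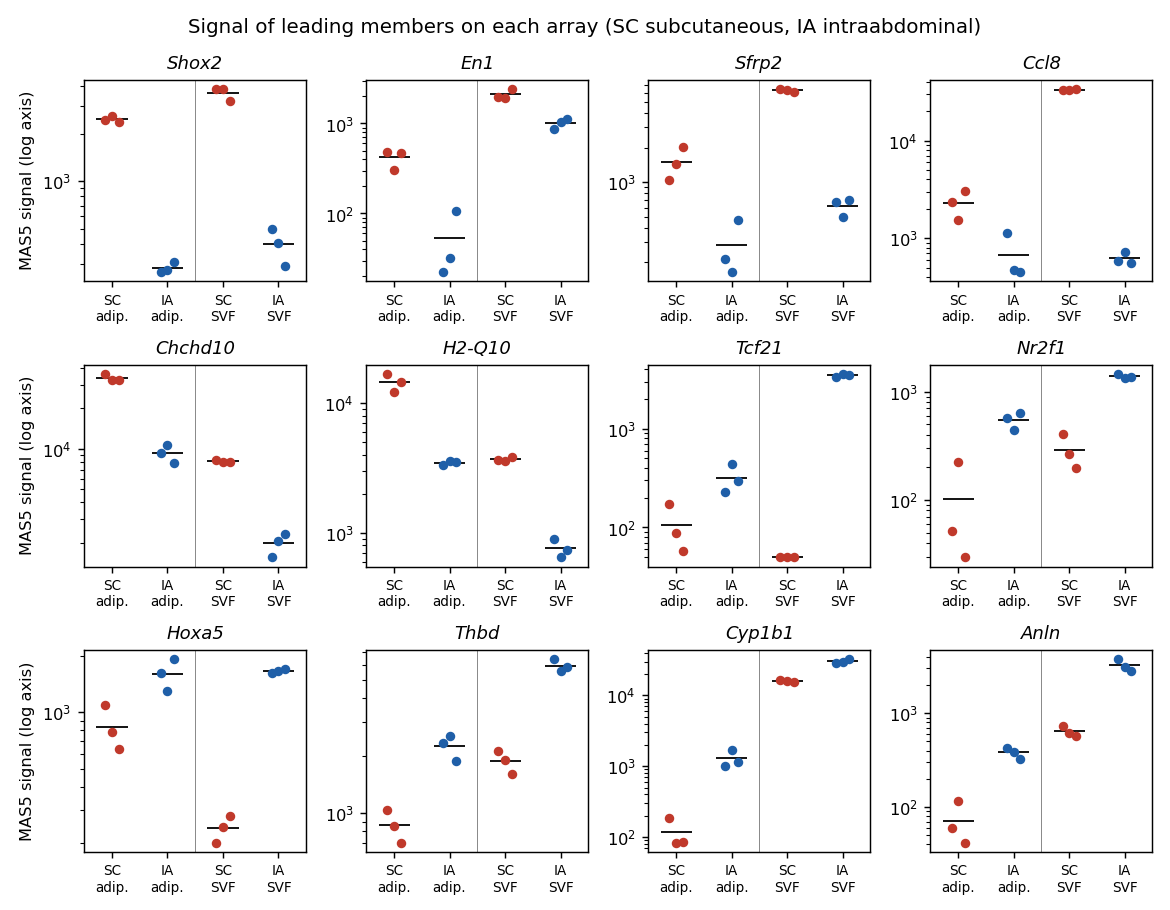
Signal of 12 leading members on each of the 12 arrays (log axis), with red points for subcutaneous (SC) and blue points for intraabdominal (IA) arrays, adipocytes (adip.) to the left and stromo-vascular cells (SVF) to the right of the grey line, and black bars at the means of 3 arrays. In every panel the 3 red and 3 blue points of a fraction are apart and lie in the same order in both fractions, as the rule requires, while the size of the step differs from gene to gene.

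Among secreted regulators of growth, Sfrp2 stood out. It binds Wnt ligands outside the cell. Its signal was 1047, 1443 and 2042 in subcutaneous and 214, 164 and 466 in intraabdominal adipocytes, and 6494, 6377 and 6082 against 668, 501 and 695 in stromo-vascular cells. Subcutaneous cells thus carried far more in both fractions (main effect 2.81 ± 0.25, 6.99-fold, adjusted p = 1.81e-05). Of 67 tested genes of the Wnt, BMP, TGF beta, FGF and Hedgehog list, Ntn1, Tgfbi and Dkk3 were the other members higher in subcutaneous fat. Ntn1, the guidance cue netrin, differed by 0.71 in adipocytes and 0.76 in stromo-vascular cells. Dkk3 was not called (adjusted p = 0.0894), and the call of Tgfbi, a matrix protein induced by TGF beta, was lost under 8 of the 22 alternatives in which it was tested. Tgfb3, a TGF beta ligand, was higher in intraabdominal fat. It read 758, 803 and 813 against 1004, 1384 and 2274 in adipocytes and 1630.4, 1429.9 and 1291 against 10687, 8279 and 7919 in stromo-vascular cells (main effect -1.72 ± 0.28, adjusted p = 0.00206). The list's median was 0.00 beside 0.06 for all genes, with 3 genes called higher in subcutaneous and 4 higher in intraabdominal fat. The list's 4 members higher in subcutaneous (5.97%) and 2 higher in intraabdominal fat (2.99%) stand beside 4.04% and 3.78% of all tested genes. The 4 and 2 became 2 and 4 under either other scaling. Its other member toward intraabdominal fat was Notch3, a receptor of vessel wall cells (-0.72 ± 0.21), whose call was lost under 12 of 23 alternatives.

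Ccl8, a chemokine that attracts monocytes, had the largest main effect of the named members, 3.71 ± 0.56 (13.1-fold, adjusted p = 0.00116). It read 2371, 1523 and 3044 in subcutaneous against 1131, 469 and 449 in intraabdominal adipocytes. In stromo-vascular cells it read 32576, 33025 and 33745 against 586, 731 and 556. The subcutaneous stromo-vascular arrays were far above the other 9. Cxcl14, a chemokine of epithelia and fat, read 529 to 1053 against 142 to 368 in adipocytes and 22759 to 24707 against 1619 to 2312 in stromo-vascular cells. Socs3, which damps cytokine signals through the JAK and STAT proteins, was a member of the opposite profile, larger in adipocytes. It read 15714, 18156 and 18658 against 4341, 3493 and 2982 there and 5224, 4580.2 and 4052 against 1896, 2204 and 1807 in stromo-vascular cells (main effect 1.75 ± 0.18, adjusted p = 7.09e-05). Il1rn, the antagonist of the interleukin 1 receptor, was the only member of the 44 tested cytokine, chemokine and acute-phase genes that was higher in intraabdominal fat (-0.89 ± 0.15, adjusted p = 0.00206). Of that list 6.82% were members higher in subcutaneous and 2.27% members higher in intraabdominal fat, beside 4.04% and 3.78% of all tested genes. Its calls were 8 higher in subcutaneous and 1 higher in intraabdominal fat, against 4 and 3 after centring and 6 and 2 after quantile normalization. The list's median was 0.03.

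Rarres2 encodes chemerin, a fat-derived attractant of immune cells whose gene responds to retinoids. It read 22312, 22395 and 29055 against 18361, 17281 and 18341 in adipocytes, a small step, and 31252, 33091 and 35158 against 3092, 5325 and 3686 in stromo-vascular cells. The enzymes Aldh1a1 and Cyp1b1 were higher in intraabdominal fat. Aldh1a1, which makes retinoic acid from retinal, read 7276, 8131 and 10569 against 17187, 16578 and 17949 in adipocytes and 12129, 12139.8 and 11849.7 against 24139.5, 27355 and 23652 in stromo-vascular cells. The step was 2.01-fold and 2.07-fold, with a main effect of -1.03 ± 0.10 (adjusted p = 3.34e-05). Another tested Aldh1a1 probe set lay in the opposite direction and was not called. Cyp1b1, a cytochrome P450 that oxidises steroids and retinoids, read 184, 83.6 and 85.9 against 1001, 1712 and 1156 in adipocytes and 16312, 16006 and 15332 against 28952, 29663 and 32448 in stromo-vascular cells. Its difference was -3.10 in adipocytes and -0.93 in stromo-vascular cells. Of this list's 25 tested genes, 1 member (4%) was higher in subcutaneous and 3 (12%) higher in intraabdominal fat. The shares of all tested genes were 4.04% and 3.78%. The last of the 3 was Hsd17b7, of steroid and cholesterol synthesis, whose call was lost under 13 of 22 alternatives. The calls were 2 and 4 by direction. The list's median was 0.11 as deposited, toward subcutaneous fat, -0.03 after centring and 0.15 after quantile normalization.

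**Figure D3:**
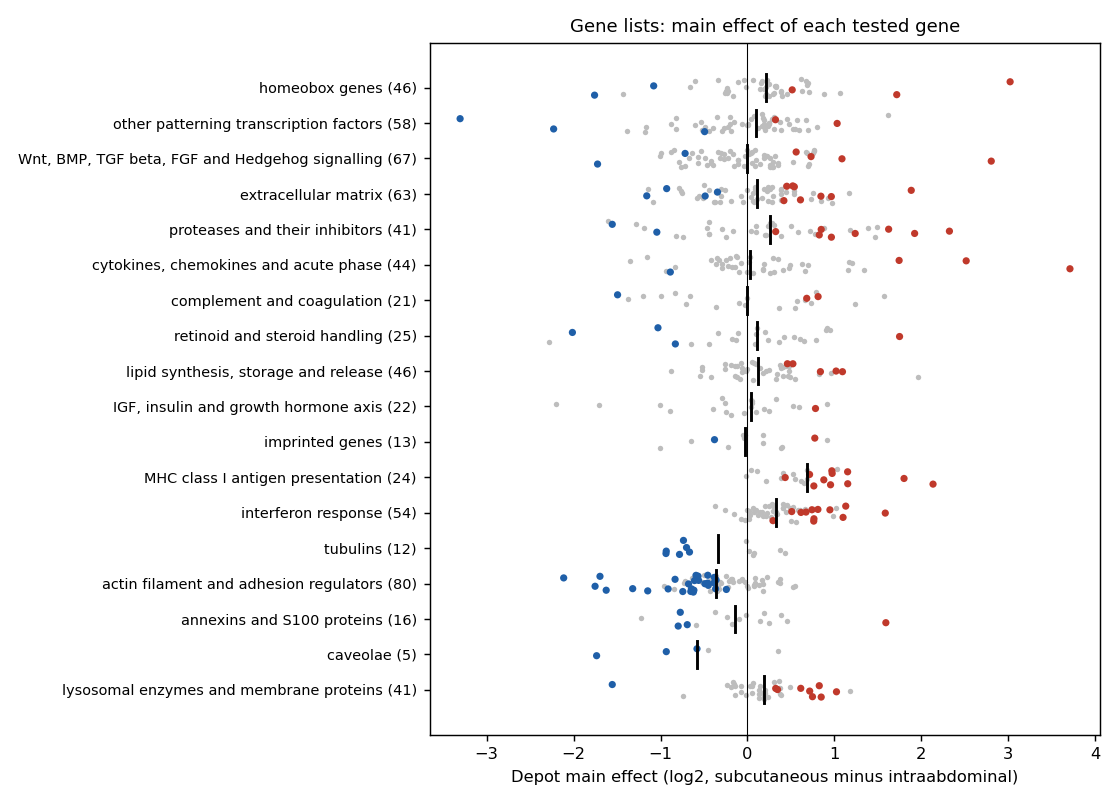
Depot main effect (log2, subcutaneous minus intraabdominal, x axis) of the tested genes of each list, with the number tested in brackets. Red and blue points are genes with a member probe set, higher in subcutaneous and in intraabdominal fat, grey points are the other genes by their brightest probe set, and black bars mark list medians over the brightest probe sets; the bar lies at 0.69 for MHC class I antigen presentation and at -0.58 for caveolae, and the 7 lowest lists were drawn up after values had been seen.

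Class I antigen presentation genes were members in 1 direction. The major histocompatibility complex (MHC) class I molecules show peptides to T cells. The immunoproteasome subunits Psmb8 and Psmb9 cut those peptides, the transporters Tap1 and Tap2 carry them into the endoplasmic reticulum, Tapbp loads them, and B2m is the light chain. This list and those of interferon response, lysosomal, actin, tubulin, caveolae and annexin and S100 genes were drawn up after values had been seen, so their counts are descriptions. Of 24 tested genes 11 were members (45.8%, beside 4.04% of all tested genes), all higher in subcutaneous fat. In the same direction 14 were called, and 0 in the other, beside 295 and 288 of all 6436 tested genes. The median main effect was 0.69, beside 0.06 over all tested genes. Centring on the median and quantile normalization each gave 10 members higher in subcutaneous and 0 higher in intraabdominal fat. Class I genes are close in sequence, so a probe set may read several of them, and the H2 probe sets are not independent.

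Psmb9 and Tap1 lie next to each other head to head in the MHC and both were members, as was Psmb8 on the far side of Tap1. Printed as examples of promoter regions of this group are the 225 bases between Tap1 and Psmb9 and the 250 bases before H2-K1. The former lie at chr17:34187331-34187555, plus strand in GRCm38.p6, and the latter at chr17:34000348-34000597, minus strand. Capitals mark the same 5 motifs.
Tap1 to Psmb9: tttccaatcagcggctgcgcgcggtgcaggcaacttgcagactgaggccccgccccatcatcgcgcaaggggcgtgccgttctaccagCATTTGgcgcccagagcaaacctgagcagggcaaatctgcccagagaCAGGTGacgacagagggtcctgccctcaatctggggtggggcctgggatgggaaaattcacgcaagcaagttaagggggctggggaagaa
H2-K1: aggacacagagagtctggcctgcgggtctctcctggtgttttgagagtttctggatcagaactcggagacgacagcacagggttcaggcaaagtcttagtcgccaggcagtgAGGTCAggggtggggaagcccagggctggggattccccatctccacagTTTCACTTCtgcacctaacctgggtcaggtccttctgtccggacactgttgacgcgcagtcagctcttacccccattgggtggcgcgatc
The stretch between Tap1 and Psmb9 held 2 E-boxes, and that of H2-K1 held 1 AGGTCA and 1 TTTCNNTTC. The 250 bases before B2m and Tapbp were also read. Those of B2m held none of the 5 motifs, and those of Tapbp held 1 E-box and no TTTCNNTTC. As TTTCNNTTC is a shortened form, its absence from a stretch does not show that the response element is absent. Over the 300-base windows TTTCNNTTC was present in 3 of 8 class I members with a window and 7 of 17 tested genes of the list. It was present in 8.06% of genes with members higher in subcutaneous, 4.35% of those higher in intraabdominal fat and 5.61% of all tested genes. These shares count the shortened form only and leave out windows that hold just the full core.

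H2-Q10, a secreted class I molecule known from liver, read 16837, 12239 and 14589 against 3341, 3577 and 3534 in adipocytes and 3680.0, 3616 and 3833 against 904, 646 and 743 in stromo-vascular cells (main effect 2.14 ± 0.11, 4.39-fold, adjusted p = 4.88e-08). The step was 4.11-fold in adipocytes and 4.70-fold in stromo-vascular cells, with no overlap. Psmb9 read 3312, 2402 and 3380.2 against 1053, 745 and 974, and 903, 1054 and 1052 against 315, 452 and 75.3 in stromo-vascular cells. Its lowest intraabdominal stromo-vascular array lay far below the other 2, and the main effect was 1.80 ± 0.28 (adjusted p = 0.00142). Psmb8 had 1.47 in adipocytes and 0.84 in stromo-vascular cells, Tap1 0.97 and 0.46, all arrays apart. H2-K1, a classical class I heavy chain, read 89534 to 105329 against 61239.7 to 71418 in adipocytes and 57827 to 61384 against 24683 to 26547 in stromo-vascular cells. B2m had a smaller difference of 0.21 and 0.66, called with the deposited values (adjusted p = 0.0169) and lost under 2 of 23 alternatives. Tapbp, with 0.17 and 1.36, lost its call under 4.

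Over the class I list the median difference was 0.61 in adipocytes and 0.59 in stromo-vascular cells, but some genes differed unequally in the fractions. The difference was larger in stromo-vascular cells for H2-K1 (adipocyte minus stromo-vascular difference -0.67, interaction adjusted p = 0.0124), H2-D1 (-0.74, 0.00907), H2-K2 (-0.65, 0.0329) and Tapbp (-1.20, 0.000489). For H2-Q10 the interaction was -0.19 (adjusted p = 0.654), for Psmb9 -0.26 (0.838) and for Psmb8 0.62 (0.0784), none of them called. Genes induced by interferon showed the same direction. Of 54 tested, 12 were members higher in subcutaneous (beside 4.04% of all tested genes) and 0 higher in intraabdominal fat, 11 were called, all higher in subcutaneous fat, and the median was 0.33. Centring gave 7 members and quantile normalization 9, all higher in subcutaneous fat. The deposited values gave as members the interferon regulatory factors Irf1 (0.74 ± 0.13, adjusted p = 0.00305) and Irf7 (0.67 ± 0.15, 0.0128), Socs1, a brake on interferon signalling (1.13 ± 0.20, 0.00395), and Uba7, the enzyme that activates the ubiquitin-like protein Isg15 (0.77 ± 0.14, 0.00457). The calls of Irf7 and Uba7 were each lost under 1 of 23 alternatives. The 10 macrophage markers, none at 0, summed to 19869 to 27616 in subcutaneous and 14095 to 22796 in intraabdominal adipocytes, ranges that overlap. In stromo-vascular cells they summed to 21221 to 21765 and 28626 to 32406, the reverse of the class I direction. The 8 lymphocyte markers on the array, none at 0, summed to 14517 to 19144 in subcutaneous and 27052 to 35711 in intraabdominal adipocytes, most of it from Ighm. The Ighm probe set in this sum was not the dimmer one that was a member. With it the stromo-vascular sums overlapped, at 1759 to 2154 and 1452 to 2237. Without Ighm the other 7 summed to 2505 to 4618 and 1388 to 2331, higher in subcutaneous adipocytes, the direction of the class I genes, and overlapped in stromo-vascular cells. The part of other cell types in the class I difference was not tested.

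**Figure D4:**
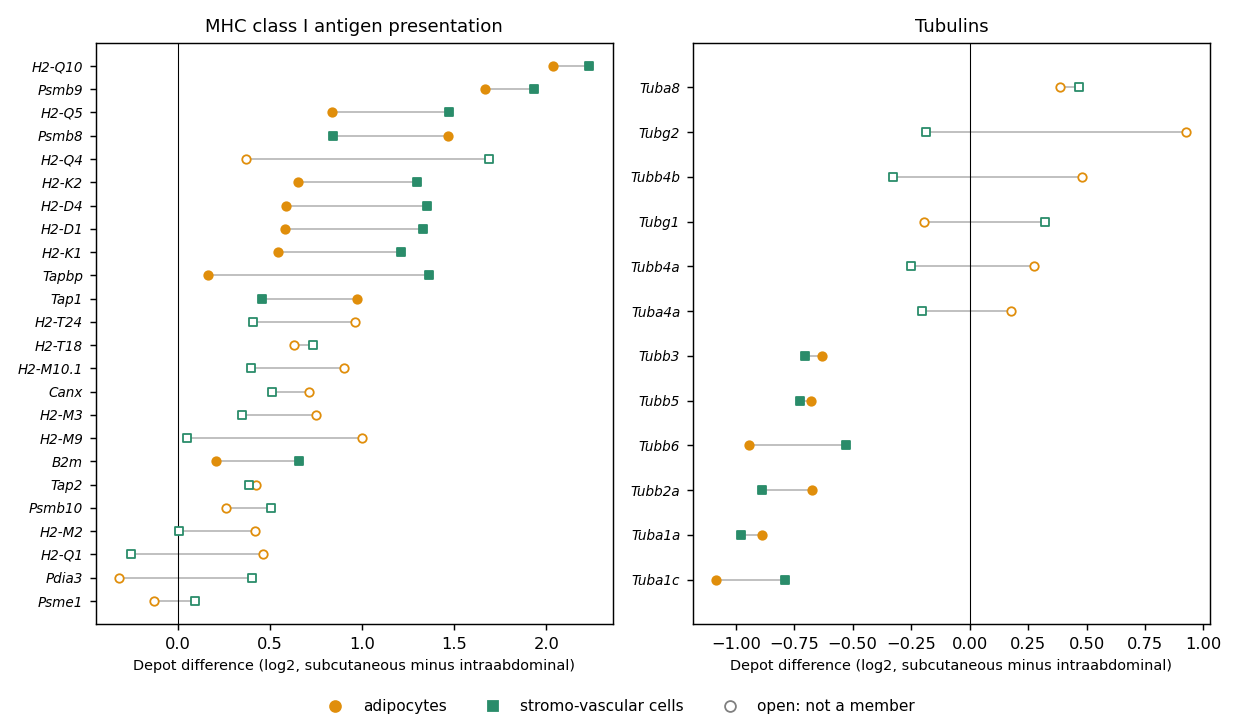
Depot difference (log2, subcutaneous minus intraabdominal, x axis) of each tested gene of the class I antigen presentation list and of the tubulins, with circles for adipocytes and squares for stromo-vascular cells, filled where the gene has a member probe set. The 11 filled class I genes lie to the right of 0 and the 6 filled tubulins to the left of 0 in both fractions, while the other 6 tubulins lie on both sides.

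Matrix proteins, and proteases with their inhibitors, gave members mostly higher in subcutaneous fat with the deposited scaling. Mmp3, a protease that cuts many matrix proteins, read 632, 420.2 and 815 against 123, 258 and 157 in adipocytes. In stromo-vascular cells it read 64016, 71737 and 68464 against 14307, 15626 and 12888, among the brightest members. The level was far higher in the cultured cells, and the depot difference was 1.59 in adipocytes and 2.25 in stromo-vascular cells (main effect 1.92 ± 0.18, adjusted p = 3.39e-05). Ace, the angiotensin-converting enzyme, read 628 to 695 against 80.1 to 395 in adipocytes and 2524 to 3028 against 234 to 364 in stromo-vascular cells (2.32 ± 0.31, adjusted p = 0.000428). Anpep, a membrane aminopeptidase, differed by 1.62 ± 0.30, Pcolce, which speeds the trimming of procollagen, by 1.24 ± 0.14, and Serping1, the inhibitor of complement C1, by 0.97 ± 0.13, all called. Of 41 tested proteases and inhibitors 8 were members higher in subcutaneous and 2 higher in intraabdominal fat, beside 4.04% and 3.78% of all tested genes, so that the 2 are near the background. The 2 were Ctsc, a lysosomal peptidase that activates immune cell proteases (-1.56 ± 0.17, adjusted p = 0.000117), and Slpi, an inhibitor of neutrophil elastase (-1.04 ± 0.22, 0.011), whose call was lost with the actin ratio as a covariate. After centring on the median the members were 6 and 4, and after quantile normalization 9 and 3.

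Dpt, dermatopontin, a dermal matrix protein, read 7627, 7806 and 9955 against 4971, 5066 and 7014 in adipocytes and 1976, 1962 and 1552 against 191, 197 and 114 in stromo-vascular cells. The adipocyte step was 1.49-fold and the stromo-vascular step 9.13-fold. Of 63 tested matrix genes 8 were members higher in subcutaneous fat, among them Col3a1 (0.52 ± 0.09), Col1a2 (0.54 ± 0.13), Tnxb (0.97 ± 0.18) and Mfap2 (0.85 ± 0.17), which form or space collagen and elastic fibres. The 4 higher in intraabdominal fat were the glypican Gpc4 (-1.16 ± 0.18), the basement membrane proteins Nid2 (-0.93 ± 0.12) and Col4a2 (-0.49 ± 0.13), and Matn2 (-0.34 ± 0.12, not called). The 8 were 12.7% and the 4 were 6.35% of the list, beside 4.04% and 3.78% of all tested genes. The direction of this list depended on scaling. Its members were 2 higher in subcutaneous and 8 higher in intraabdominal fat after centring and 6 and 4 after quantile normalization. The call of Col3a1 was lost after centring, that of Mfap2 with the actin ratio as a covariate, and those of Col1a2 and Col4a2 each under 7 of 23 alternatives. Lysosomal enzymes, a list drawn up after values had been seen, had 8 members higher in subcutaneous and 1 higher in intraabdominal fat of 41. These were 19.5% and 2.44%, beside 4.04% and 3.78% of all tested genes. Centring gave 1 and 1, and quantile normalization gave 8 and 1. Hexa, which splits gangliosides (1.02 ± 0.17, adjusted p = 0.00261), and the peptidase Lgmn (0.75 ± 0.15, 0.00691) were among the 8 of the deposited values. Thbd, thrombomodulin, the receptor through which thrombin activates protein C, was higher in intraabdominal fat. It read 1034, 850.1 and 700.0 against 2336, 2538 and 1863 in adipocytes and 2125, 1901 and 1609.9 against 6399, 5552 and 5806 in stromo-vascular cells, a main effect of -1.49 ± 0.13 (adjusted p = 1.81e-05). Another Thbd probe set was not called (adjusted p = 0.549). Of 21 tested complement and coagulation genes the other members were C1ra, a subunit of the first complement component (0.81 ± 0.13), and Cd55, which protects cells from complement (0.68 ± 0.19), both higher in subcutaneous fat. The call of Cd55 was lost under 14 of 22 alternatives. In the list 5 genes were called higher in subcutaneous and 2 higher in intraabdominal fat, and the median was 0.00. Centring gave 3 and 4 calls, and quantile normalization 4 and 2.

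Metabolic members of large difference lay in both directions. Chchd10, a protein of the mitochondrial intermembrane space, read 35939, 32665 and 32518 against 9352, 10762 and 7894 in adipocytes and 8309, 7919.9 and 8007 against 1559, 2056 and 2342 in stromo-vascular cells. Subcutaneous cells carried 3.62-fold more in adipocytes and 4.06-fold more in stromo-vascular cells (main effect 1.94 ± 0.11, adjusted p = 1.56e-07). Cox8b, a subunit of cytochrome c oxidase found in brown fat and muscle, read 14495 to 27488 against 2124 to 2422 in adipocytes and 899 to 1207 against 566 to 735 in stromo-vascular cells. Its call was lost with the actin ratio as a covariate (adjusted p = 0.0604). Beside it the 7 brown fat markers on the array, which include Cox8b and had none at 0, summed to 32634 to 50543 in subcutaneous and 3362 to 4169 in intraabdominal adipocytes, and to 1502 to 1996 and 1148 to 1490 in stromo-vascular cells. Cox8b was the only member among them. Without it the other 6 summed to 18033 to 23893 and 1238 to 1888 in adipocytes and overlapped in stromo-vascular cells, and the part of brown fat cells was not tested.

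Of 46 tested lipid genes 5 were members, all higher in subcutaneous fat (10.9%, beside 4.04% of all tested genes). Centring gave 0 in that direction and 1 in the other, whereas quantile normalization gave 5 and 0. Scd1, which makes monounsaturated fatty acids, differed by 0.40 in adipocytes and 1.28 in stromo-vascular cells, Pltp, which transfers phospholipid, by 0.63 and 1.55, and the fatty acid elongase Elovl6 by 1.02 ± 0.24 over both. The call of Elovl6 was lost with the actin ratio as a covariate (adjusted p = 0.178). Cpt1a, which passes long-chain fatty acids to mitochondria for oxidation and was named after its values were seen, was a member of the other direction. It read 3278, 3302 and 3022 against 7100.4, 6609 and 5846 in adipocytes and 3392, 3449.9 and 2718 against 7942, 8652 and 8343 in stromo-vascular cells. Intraabdominal cells carried 2.02-fold more in adipocytes and 2.60-fold more in stromo-vascular cells (main effect -1.20 ± 0.10, adjusted p = 1.81e-05). Irs2, an adaptor of the insulin receptor, was the only member of 22 genes of the IGF, insulin and growth hormone axis (0.78 ± 0.15, adjusted p = 0.00503), or 4.55% beside 7.82% of all tested genes, and 3 genes were called in each direction. Of 13 imprinted genes Slc22a18 (0.78 ± 0.17) was a member higher in subcutaneous and Ndn (-0.38 ± 0.12, not called) higher in intraabdominal fat.

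Cytoskeleton genes gave many members higher in intraabdominal fat. Of 80 tested regulators of actin filaments and adhesion 27 were members, all higher in intraabdominal fat, and 31 were called, all in that direction. The share of all tested genes that were members in that direction was 3.78%, and the median main effect of the list was -0.37. Centring gave 35 members and quantile normalization 31, with 0 of the other direction in each. Anln, anillin, an actin-binding scaffold of the dividing cell, read 59.3, 115 and 41.9 against 431, 391 and 329 in adipocytes and 738, 619 and 565 against 3767, 3138 and 2813 in stromo-vascular cells (-2.11 ± 0.19, adjusted p = 1.81e-05). Intraabdominal cells thus carried 3.90-fold and 4.81-fold more on the log2(signal + 40.1) scale. Mylk, the kinase that starts smooth muscle contraction, read 6257 to 7247 against 12714 to 13831 and 6865 to 8621 against 34638 to 40819.6. The LIM domain proteins Csrp1 (-1.10 in adipocytes, -2.30 in stromo-vascular cells) and Fhl1 (-0.41 and -3.09) also differed more in stromo-vascular cells.

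Proteins found in nearly every cell were among them at smaller size. The switch proteins Rac1 (-0.62 ± 0.11), Rhoa (-0.49 ± 0.10) and Cdc42 (-0.36 ± 0.08), which set where actin grows, were called, that of Cdc42 being lost with the actin ratio as a covariate. So were Cfl1, cofilin, which cuts filaments (-0.57 ± 0.11), Vcl, vinculin, which ties them to adhesions (-0.74 ± 0.12), Arhgap1 (-1.32 ± 0.16) and Marcks (-1.15 ± 0.13). The 10 smooth muscle and pericyte markers, which include Mylk and had none at 0, summed to 12064 to 14944 in subcutaneous and 19613 to 21748 in intraabdominal adipocytes, and to 44268 to 45424 and 166884 to 196718 in stromo-vascular cells. Mylk was the only member among them. Without Mylk the other 9 overlapped in adipocytes (4817 to 8687 and 6899 to 7917) and stayed apart in stromo-vascular cells (36705 to 38347 and 129541 to 155898). The median difference of the list was -0.06 in adipocytes and -1.98 in stromo-vascular cells. The 7 mesothelial markers on the array, none at 0, summed to 1083 to 1872 and 1145 to 1750 in adipocytes, which overlap, and to 1087 to 1413 and 6879 to 7064 in stromo-vascular cells. The part of smooth muscle and mesothelial cells in the actin list was not tested.

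**Figure D5:**
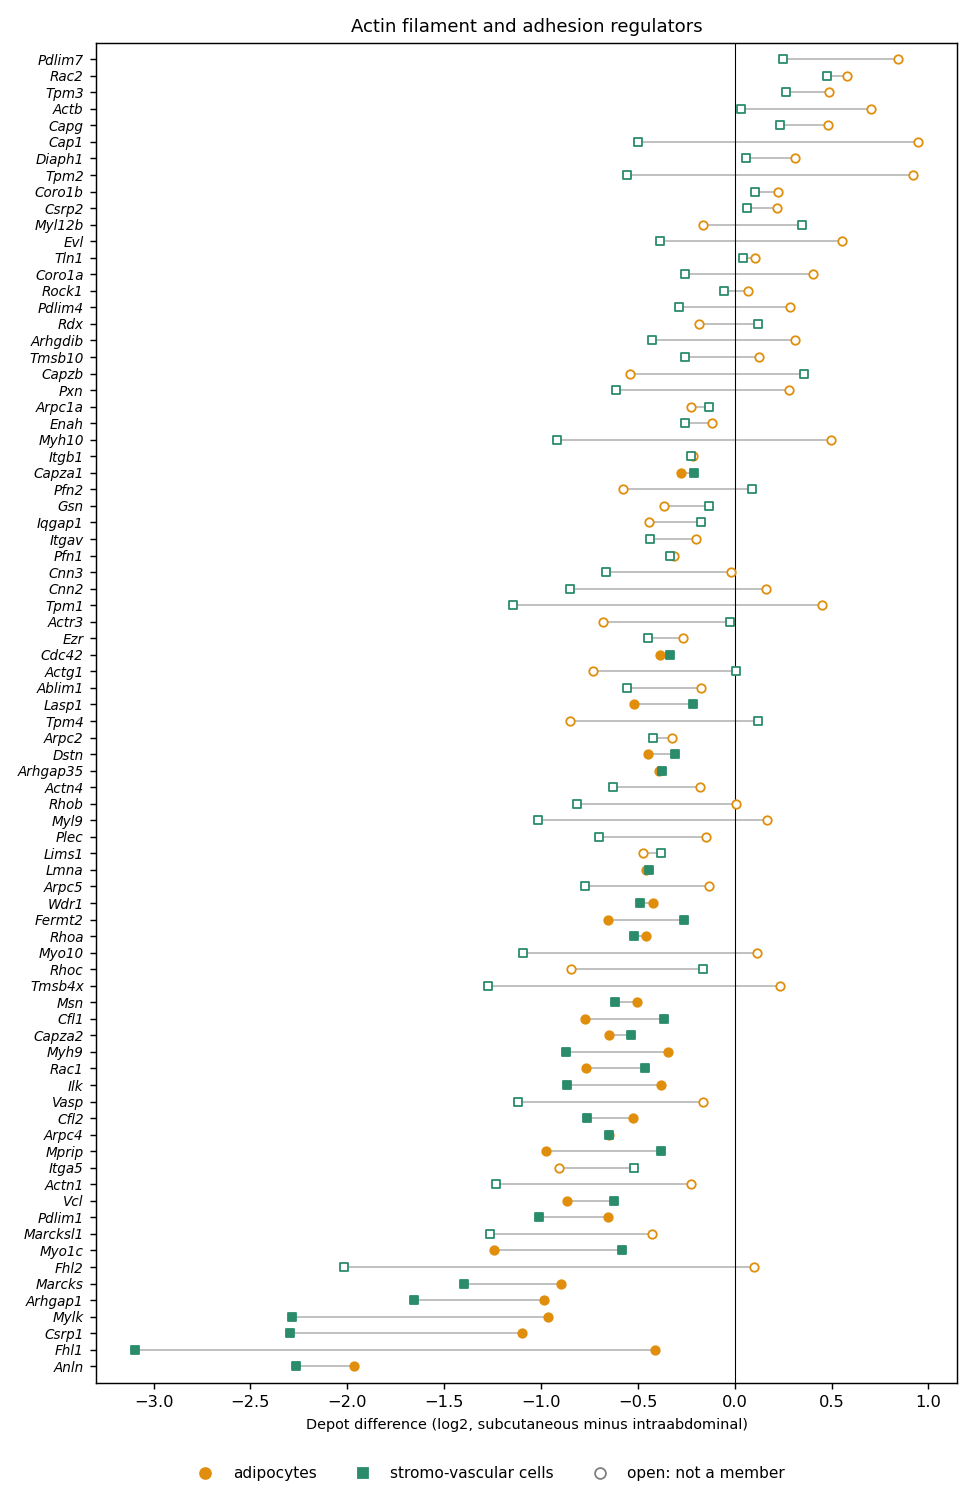
Depot difference (log2, subcutaneous minus intraabdominal, x axis) of 80 tested regulators of actin filaments and adhesion, ordered by main effect, with circles for adipocytes and squares for stromo-vascular cells, filled where the gene has a member probe set. The 27 filled genes lie to the left of 0 in both fractions, from Capza1 near 0 to Anln and Fhl1 at the foot, and the open genes lie on both sides.

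Tubulins, the subunits of microtubules, had 6 members of 12 tested, all higher in intraabdominal fat and 6 also after either other scaling. The 6 were 50% of the list, beside 3.78% of all tested genes. Tubb5, a widely used beta tubulin, read 11612, 11668 and 11412 against 20441, 17709 and 17502 in adipocytes and 17198, 17381 and 16867 against 28392, 28899 and 27838 in stromo-vascular cells (-0.70 ± 0.08, adjusted p = 0.000113). The 4 groups were tight and the step nearly equal, -0.68 and -0.73. Tuba1a (-0.93 ± 0.12), Tuba1c (-0.94 ± 0.12), Tubb2a (-0.78 ± 0.10), Tubb3 (-0.67 ± 0.12) and Tubb6 (-0.74 ± 0.18) were the others, and Tubb6 lost its call under 3 of 23 alternatives. Tubulin genes are nearly identical in coding sequence, so these probe sets may share transcripts and their count is uncertain. Caveolae are flask-shaped pits of the cell membrane that are dense in fat cells. Their list gave 3 members of 5 tested (60%, beside 3.78% of all tested genes), all higher in intraabdominal fat under each scaling. Cav1, caveolin 1, read 27252, 36147 and 33073 against 51794, 48889.7 and 51162 in adipocytes and 4471, 3761 and 3052 against 9302, 8945 and 7685 in stromo-vascular cells (-0.93 ± 0.13, adjusted p = 0.000615). Another tested Cav1 probe set lay in the opposite direction and was not called. The coat partners of caveolin 1, Cavin1 (-0.27 and -0.89) and Cavin2 (-0.46 and -3.02), differed more in stromo-vascular cells.

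Of 16 tested annexins, which bind membranes, and S100 proteins, small partners of theirs, Anxa1 (-0.77 ± 0.09), Anxa2 (-0.80 ± 0.11) and S100a10 were members higher in intraabdominal fat. They were 18.8% of the list, beside 3.78% of all tested genes, and members higher in subcutaneous fat were 6.25%, beside 4.04%. Anxa8 went the other way, at 3039, 3036 and 4447 against 1069.9, 1444 and 1145 in adipocytes and 1536, 1435 and 1964 against 409, 442 and 581 in stromo-vascular cells (1.59 ± 0.15, adjusted p = 3.34e-05). Its step was 2.79-fold and 3.26-fold. Other large members toward intraabdominal fat were the sodium-calcium exchanger Slc8a1 (-1.43 ± 0.17), the aldo-keto reductase Akr1c13 (-1.62 ± 0.19) and Reep6, of endoplasmic reticulum shape (-1.38 ± 0.25), all called. Reep6 differed by -1.95 in adipocytes and -0.81 in stromo-vascular cells, where its signals were low (62.2 to 148 against 152 to 275). Itm2a, a membrane protein of developing cartilage and muscle (2.44 ± 0.28), and Rpl39l, a ribosomal protein paralog (2.18 ± 0.21), were large called members toward subcutaneous fat. A Mup3 probe set, for a major urinary protein, differed by 5.95 in adipocytes and 0.51 in stromo-vascular cells, where all 6 arrays were near the bottom of the scale (57.5 to 81.7 and 22.7 to 50.3). Its family is so alike that the gene is uncertain, and its call was lost with array weights and with the actin ratio as a covariate. Ighm, the heavy chain of immunoglobulin M, was a member higher in intraabdominal fat at 1846 to 2428 against 6461 to 7965 in adipocytes and 36.5 to 152 against 175 to 214 in stromo-vascular cells. Of the other 3 tested Ighm probe sets 2 had the same direction and 1 the opposite one, and none was a member. A brighter one of them made up most of the lymphocyte sum in adipocytes. No lymphocyte marker was called by its brightest probe set. Ighm was the only lymphocyte marker with a member probe set, and the others, without Ighm, summed higher in subcutaneous adipocytes, opposite to that probe set. The call of the member Ighm probe set was lost with the actin ratio as a covariate.

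The size of the difference was compared between the fractions. The rule limits this contrast, since it asks for separate arrays and the same sign in both fractions, so its counts describe the members and are no separate evidence. Of 599 members 49 (8.18%) had a called interaction, close to the 8.43% of all tested probe sets, of which 3.9% were more positive in adipocytes and 4.53% more positive in stromo-vascular cells. In 40 of the 49 the depot difference was larger in stromo-vascular cells and in 9 larger in adipocytes, beside 500 and 233 of the 733 called among all tested probe sets. Tcf21 (3.95, adipocytes minus stromo-vascular, adjusted p = 8.40e-05), Ccl8 (-3.88, 3.95e-05), Fhl1 (2.68, 6.03e-07), Rarres2 (-2.62, 7.22e-06) and Dpt (-2.61, 4.40e-05) led those larger in stromo-vascular cells. Mup3 (5.44, 6.81e-05), Cox8b (2.30, 0.000258), Cyp1b1 (-2.17, 0.000466), Socs3 (1.07, 0.00581) and Lrrc59, a membrane protein of the endoplasmic reticulum (-0.57, 0.035), were among the others. A missed threshold does not show equal sizes. The interactions of Shox2 (-0.13), Nr2f1 (-0.14) and Aldh1a1 (0.04) were among those not called.

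The rule did not use which fraction held more of a member, although it asks for arrays that lie apart in both fractions, so the shares are given as a description. Of the members 191 (31.9%) were called higher in adipocytes and 225 (37.6%) higher in stromo-vascular cells, beside 26.6% and 33.4% of all tested probe sets, 60% in all. By direction, members higher in subcutaneous fat were higher in adipocytes in 112 of 320 cases and in stromo-vascular cells in 92. Members higher in intraabdominal fat were higher in adipocytes in 79 of 279 and in stromo-vascular cells in 133. Mmp3 (-6.40, adipocytes minus stromo-vascular) and Cyp1b1 (-5.63) lay far toward stromo-vascular cells, and Reep6 (4.55) and Scd1 (4.43) far toward adipocytes. With the deposited scaling, tested members of intraabdominal fat were also brighter, with a median mean log2 signal of 11.8 beside 10.3 for those of subcutaneous fat and 9.98 for all tested probe sets. Members too dim for the test were 47 of subcutaneous and 2 of intraabdominal fat as deposited. They were 20 and 9 after centring and 13 and 14 after quantile normalization, so this link between brightness and direction depended on scaling.

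Members just inside the rule were separated by almost nothing. Col9a3 read 919, 1219.7 and 742 against 654, 668 and 742 in adipocytes, a gap of less than 1 unit of signal between its nearest arrays. Lifr, Pja1 and Qrsl1 were the next closest inside, and St13, Wdr26, Prkcd and Ikbkg lay just outside with an overlap about as small. Asking for a gap of at least 0.5 (log2) in both fractions left 53 members, 27 higher in subcutaneous and 26 higher in intraabdominal fat. Of the 785 main-effect calls 314 were not members. Of these 238 were free of overlap in stromo-vascular cells alone, 73 in adipocytes alone and 3 in neither, and 311 had the same sign in both fractions.

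Probe sets apart in both fractions but in opposite directions numbered 309 (2.49%), fewer than the 648 of the same direction. Agt, the precursor of angiotensin, was the largest of them by the smaller of its differences, at -2.88 in adipocytes and 2.62 in stromo-vascular cells (interaction adjusted p = 4.23e-09). Dpysl3, a regulator of the cytoskeleton in growing nerve cells (1.65 and -2.05), and Bdnf, a growth factor of nerve cells (1.55 and -1.86) ran the other way. Such genes cancel in the main effect and are not described further.

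Of 150 member genes with more than 1 tested probe set, 22 had 2 or more member probe sets. Of 156 other tested probe sets of member genes 110 had the same direction and 46 the opposite one, of which 0 were called. Genes named here with an opposite probe set included Aldh1a1, Cav1, Tubb2a, S100a10, Rhoa, Scd1, Slpi and Ighm. Of 2331 pairs of tested genes that are neighbours in the RefSeq gene order, 14 were both members, and 12 of these shared the direction. Besides Psmb9, Tap1 and Psmb8 they included Ace with Cyb561, Anxa1 with Aldh1a1, Tuba1a with Tuba1c and the ATP receptors P2rx7 with P2rx4. As 7.82% of all tested genes were members, pairs of members also arise without a link between neighbours. The count is a description and no evidence of clustering.

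Arrays of 1 group had a Pearson r of 0.929 to 0.976, taken over probe sets that are not independent of each other. The median signal of an array was 477 to 559 in subcutaneous and 423 to 484 in intraabdominal adipocytes, and 507 to 533 and 486 to 512 in stromo-vascular cells. The ratio of 3' to 5' signal of actin, which rises as RNA breaks down, was 2.35 to 3.10 and 1.71 to 2.24 in adipocytes and 1.20 to 1.24 and 1.11 to 1.21 in stromo-vascular cells, higher in subcutaneous adipocytes. With this ratio as a covariate 587 probe sets were called, 396 of them among the 785. The 8 adipocyte markers summed to 446474 to 580661 on the adipocyte and 5482 to 7402 on the stromo-vascular arrays, and none of them was a member. The 9 endothelial markers, of which Tek was a member, were higher in subcutaneous stromo-vascular cells (3725 to 4513 against 1981 to 2577), and overlapped in adipocytes (13786 to 21966 against 16501 to 18346). The 12 skeletal muscle markers, of which Ckm and Mylpf were members higher in subcutaneous fat, were also higher in subcutaneous stromo-vascular cells (9533 to 10751 against 6453 to 8011) and overlapped in adipocytes. Ckm was not called (adjusted p = 0.2). Of the 4 Schwann and nerve markers on the array Pmp22 was a member higher in intraabdominal fat and made up most of their sum, and without it the sums of the other 3 overlapped between the depots in both fractions. No gene of the 7 epididymis and testis markers or of the 10 skin and mammary epithelium markers on the array was a member. The part of these cell types in the members was not tested.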

How the data were processed

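RNA of 12 samples was read on Affymetrix mouse arrays. The authors deposited 1 signal intensity per probe set and array made with MAS5, per the submitters' processing notes. Its version is not given in the sources used here. As deposited, the arrays shared a common trimmed mean (highest over lowest 1.00017). Of 12488 probe sets 66 controls were left out, 10833 had 1 gene symbol, 396 several and 1193 none.

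The intensities were taken as deposited, as log2(signal + 40.1), the pseudocount being the 10th percentile of all values. The lowest 30% of probe sets by mean were left out, which left 8695. The depot main effect was fitted with limma 3.58.1 in R 4.3.3 (lmFit, eBayes with trend) with fraction as a factor, and within-fraction differences and the interaction with 4 group means. Adjusted p-values are Benjamini-Hochberg over all tested probe sets, two-sided, called under 0.05. Membership was read from all 12422 probe sets. The fits were tested on simulated data.

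Members and lists were chosen with earlier results of these data known. A gene stands by its brightest member probe set. Named were the 15 largest called main effects in each direction that reached the median of all values in a fraction, member genes of the lists, the 4 members and 4 non-members nearest the threshold, the 5 largest interactions in each direction and the 3 largest differences of opposite sign. Tbx15, P2rx7, P2rx4, Cyb561, Pmp22, S100a10, Tap1 and the other class I, interferon, cytoskeleton, caveolae, annexin and lysosome genes, and Cpt1a, were named after their values were seen. No scanner files were used here, so background and probe summary could not be varied. The number of arrays, 3 in each group, limits the precision. Array probe sets ending in _f_at or _s_at may read related genes. Sequences are from RefSeq; 211 and 207 genes of the member directions had a promoter window.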

Additional observations from a re-analysis of the deposited data

Results flagged for a closer look

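Depot differences that were unequal in adipocytes and stromo-vascular cells by limma's interaction test are given here as the adipocyte difference minus the stromo-vascular difference (log2), and no cause was tested. Of the members 49 had such a call. Among members higher in subcutaneous fat the stromo-vascular difference was the larger for Ccl8 (-3.88), Rarres2 (-2.62), Dpt (-2.61), Cxcl14 (-2.01), Itm2a (-1.80), Tapbp (-1.20), Hexa (-1.10), Scd1 (-0.89), H2-D1 (-0.74), H2-K1 (-0.67) and H2-K2 (-0.65). The adipocyte difference was the larger for Mup3 (5.44), Cox8b (2.30) and Socs3 (1.07).

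Among members higher in intraabdominal fat the stromo-vascular difference was the larger for Tcf21 (3.95), Fhl1 (2.68), Cavin2 (2.56), Tgfb3 (1.73), Hoxa5 (1.67), Mylk (1.33), Csrp1 (1.20), Gpc4 (1.16), Ctsc (0.93), Hoxc8 (0.88) and Cavin1 (0.62). The adipocyte difference was the larger for Cyp1b1 (-2.17) and Lrrc59 (-0.57). Agt (-5.50), Dpysl3 (3.70) and Bdnf (3.41) are not members, since their arrays were apart in opposite directions in the fractions.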

How the results depend on the processing

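The 785 main-effect calls became 1306 with 4 group means, 1506 with array weights and 521 with the replicate block (262 and 259 by direction), and 463 to 871 when 1 array was left out. The fit with 4 group means leaves unequal differences of the fractions out of the spread. The count fell by more than 1.5 times without subcutaneous stromo-vascular array 1 (502), 2 (463) or 3 (464), or intraabdominal stromo-vascular array 2 (492) or 3 (486). The cause was not tested. No pairing by replicate number was seen: 1 of 18 same-numbered pairs had a correlation of deviations over 0.1 (-0.086 to 0.11). With 3 arrays in each group this cannot exclude a pairing. Of 648 members 53 had a gap of at least 0.5. Leaving out an array, which loosens the rule, gave 756 to 1039, the most without subcutaneous adipocyte array 3 (1039) or intraabdominal adipocyte array 3 (998). The 49 interaction calls ranged from 40 to 59 and the 416 fraction calls from 399 to 425. Of 105 named probe sets called, 78 were called under every alternative and 27 lost the call under at least 1, and 0 reversed. Other scalings moved the split between depots, as the report gives. Probe sets near background limit Tbx15, Mup3, En1, Tcf21, Reep6 and Ighm.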
